A study of Mus musculus with 20 samples.

Results

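The comparison described here was APG-157 alone against control in SCCVII tumors, 4 of the 20 libraries of the study. Its members were chosen by treatment label: the 2 libraries of tumors from mice given APG-157 (replicates A and B) and the 2 libraries of control tumors (replicates A and B). SCCVII is a mouse squamous carcinoma line used as a model of head and neck cancer, and it was grown under the skin of immunocompetent C3H/HeOuJ mice, the strain shared by all groups. According to the methods, APG-157 was eaten with the food and control mice received saline injections. The age of the mice and the day of collection of each sequenced tumor are not given in the sources used here. Nor is it stated that replicates A and B of a group are different animals, so the spread behind each p-value may be technical. The other 8 groups received anti-PD-1, anti-CTLA-4 or anti-CD8 antibodies, with or without APG-157, and 6 libraries with APG-157 and 6 with the same antibodies alone serve below as a second measure of APG-157.

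APG-157 is a botanical drug made from turmeric (Curcuma longa), with curcumin among its components. Curcumin is best known for blocking NF-κB, the transcription factor that drives inflammatory cytokines, and for inducing the antioxidant factor NRF2. In a tumor, the readouts of immune activity include MHC class II molecules, which present peptides to CD4+ T cells and are switched on by the coactivator CIITA in dendritic cells, B cells and interferon gamma-treated macrophages, and the receptor and coreceptor genes of the T cells themselves. RNA of whole tumors was sequenced, so fewer cells of a type and less RNA per cell cannot be told apart in any value below.

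Library totals were 54.9 and 59.0 for APG-157 A and B and 55.1 and 52.1 for control A and B (expected counts in units of 1e6). Levels are given as CPM (counts per 1e6 of library size, after TMM scaling). GEO's labels call the samples head and neck cancer cells. The keratins of simple epithelium were abundant, with Krt8 at 934, 894, 849 and 909 CPM and Krt18 at 1017, 1215, 1005 and 1176 CPM (APG-157 A and B, then control A and B, the order used throughout). Markers of squamous epithelium were at or near 0: Krt5 had 3 counts in control A and 0 in the other 3 libraries, Krt14 had 0, 16, 1 and 1 counts, and Epcam lay between 6 and 12 counts. Of the 25 genes of the epidermis list, 13 passed the count filter. The mesenchymal filament gene Vim lay between 4026 and 5093 CPM, and Ptprc, which encodes the pan-leukocyte antigen CD45, lay between 109 and 163 CPM, so leukocyte RNA was present in each library. The epithelial label thus rested on Krt8 and Krt18, and the squamous markers Krt5 and Krt14 did not bear it out.

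The 4 libraries did not fall into their 2 groups over all genes. Over 13957 genes with a mean of at least 1 CPM, the root mean square difference in log2(CPM + 1) was 0.46 between the 2 APG-157 libraries and 0.38 between the 2 control libraries. It was 0.33 between APG-157 A and control A and 0.34 between APG-157 B and control B, smaller than either difference within a group. The biological coefficient of variation was 32.5% within APG-157 and 23.5% within control.

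No gene passed the test. With edgeR's quasi-likelihood test on all 20 libraries, 0 of 19567 genes (0%) had an adjusted p under 0.05 with a log2 fold change over 2 in size, and the smallest adjusted p was 1. At an unadjusted p under 0.05, 59 genes (0.302%) were higher and 90 (0.46%) were lower. In 1530 genes (7.82%) both APG-157 libraries lay above both controls, and in 2588 genes (13.2%) both lay below. These shares are the background against which the gene groups are read. The median log2 fold change of all genes was −0.01. DESeq2 on the same 20 libraries called 0 genes higher and 5 lower (0.0256%), and DESeq2 on the 4 libraries alone called 0 higher and 13 lower of 17043 genes (0.0763%). Every statement below that a gene was higher or lower is thus a description of 2 against 2 libraries. The standard errors come from the edgeR fit of all 20 libraries. They carry the variation within all 10 groups, and not that of these 4 libraries alone. Within single groups the biological coefficient of variation ran from 4.26% to 67.2%. The edgeR adjusted p was 1 for each gene named in this comparison. An unadjusted p under 0.05 is stated for some genes only, and not for each gene picked below by smallest p. Where it is not stated, a p above 0.05 does not follow.

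Genes of MHC class II were the lowest relative to control among the antigen presentation genes. In 14 of 16 antigen presentation genes both APG-157 libraries lay below both controls and in 0 above, against 13.2% and 7.82% of all genes, and the median log2 fold change was −0.57. Ciita, the coactivator that controls the class II genes, was at 5.05, 6.09, 26.4 and 24.0 CPM, a log2 fold change of −2.18 with a standard error of 1.13. Cd74, the invariant chain that escorts class II molecules, was at 151.5, 479, 1222 and 1835 CPM, a log2 fold change of −2.28 with a standard error of 1.28. In both genes the groups were separate, and the gap between the APG-157 libraries was wider for Cd74 than for Ciita. H2-Aa, the alpha chain of the class II molecule I-A, was at 63.8, 214, 540 and 846 CPM, with a fitted level 4.99-fold lower in APG-157. H2-Ab1 and H2-Eb1, the beta chains of I-A and I-E, were 4.69-fold and 4.65-fold lower. H2-DMa and H2-DMb1, the peptide exchange molecule of the class II pathway, had log2 fold changes of −1.51 and −1.71. The class I genes differed less: H2-K1 was at 1756, 1685, 2082 and 2173 CPM (log2 fold change −0.31, standard error 0.40), and B2m, the light chain of class I, had a log2 fold change of −0.23 with a standard error of 0.30. Tap2 and Tapbp, of the peptide loading complex of class I, had overlapping groups. C3H mice carry the k haplotype of these H2 genes and the reference genome another, so part of the reads may not have matched; how that touched the counts was not tested, and it applies to all groups alike.

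**Figure D1:**
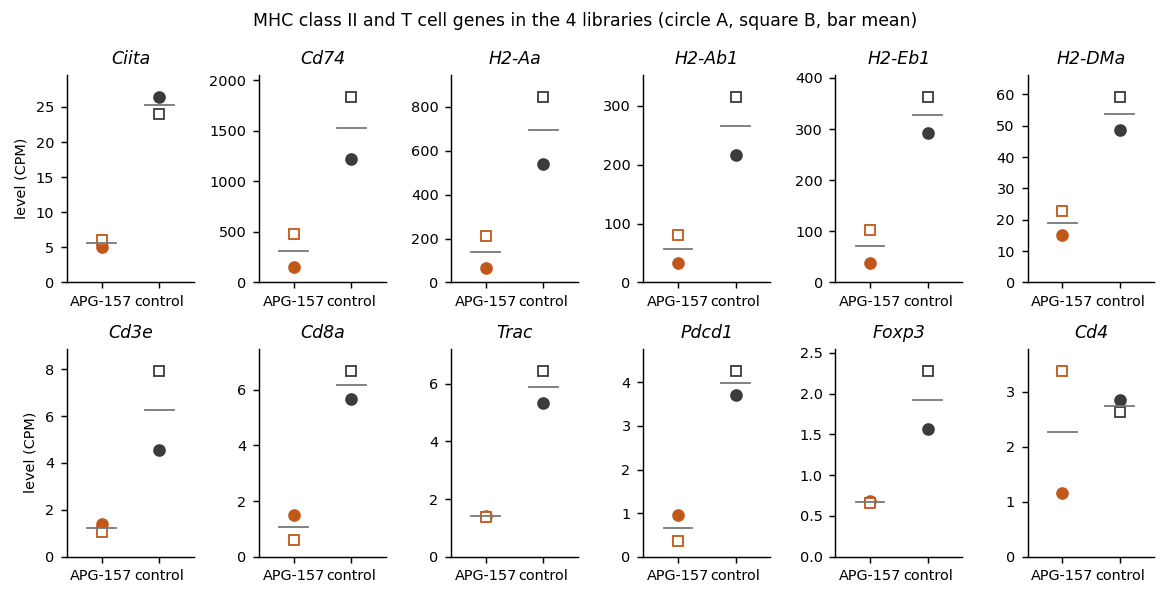
Level in CPM (vertical axis, from 0) of 6 MHC class II pathway genes and 6 T cell genes in each of the 4 libraries. Circles are replicate A, squares replicate B and bars the mean of 2 libraries; in every panel except that of Cd4 both APG-157 points lie below both control points.

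Of 7 class II genes with a promoter entry, 3 carry a pair of short motifs in nearly the same arrangement. These 3 were among the genes lower in APG-157 and are shown here. Upstream of class II genes the X box and the Y box are known to hold the factors on which CIITA acts. Promoter sequences were taken from RefSeq on GRCm38.p6, from 250 bases before to 50 after each start, and the letters searched were AACT, from the X box, followed on the same strand by TGATTGG, from the Y box, with 20 to 40 bases from start to start. The letters were chosen after these promoters had been read. Both motifs are in capitals, and each sequence is written 5′ to 3′ on the strand of its gene:
H2-Aa: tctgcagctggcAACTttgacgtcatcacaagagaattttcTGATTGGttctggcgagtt
H2-Eb1: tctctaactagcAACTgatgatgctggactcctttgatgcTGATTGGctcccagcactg
H2-DMb1: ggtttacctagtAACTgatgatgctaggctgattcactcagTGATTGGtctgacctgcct
The stretches lie at chr17:34287855-34287914 on the minus strand, chr17:34305766-34305824 on the plus strand and chr17:34153087-34153146 on the plus strand. From AACT to TGATTGG there were 29, 28 and 29 bases. On either strand, the pair was present in 0.551% of 32851 promoters at any distance from 20 to 40 bases and in 0.0731% at 28 or 29 bases, while TGATTGG alone was in 7.82%. The 28 or 29 bases are the distances in these 3 promoters, which are among those counted. That share is therefore no independent measure of rarity. The pair was not found in the windows of H2-DMa, H2-DMb2, H2-Oa and H2-Ob. H2-DMa and H2-DMb2 were nonetheless also lower in both APG-157 libraries than in both controls. H2-Ab1 and Ciita have no entry in the table. A match of letters is a description and not evidence of binding.

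T cell genes were lower in both APG-157 libraries. In 20 of 27 genes both APG-157 libraries lay below both controls and in 1 above, against 13.2% and 7.82% of all genes, with a median log2 fold change of −1.05. The mean log2(CPM + 0.1) of the list was 0.71 and 0.61 in APG-157 and 1.57 and 1.95 in control. Cd8a, a chain of the CD8 coreceptor of cytotoxic T cells, was at 1.505, 0.608, 5.66 and 6.67 CPM, 5.83-fold lower (log2 fold change −2.54, standard error 1.33). Its partner Cd8b1 was at 0.699, 0.321, 2.30 and 3.11 CPM. Cd3e, a signaling chain of the T cell receptor complex, was at 1.40, 1.05, 4.56 and 7.91 CPM, 5.10-fold lower (log2 fold change −2.35, standard error 1.23). All 3 genes were low in both treated libraries and the groups did not overlap. Trac, the constant region of the receptor alpha chain, was at 1.42, 1.38, 5.33 and 6.44 CPM. Trbc1, a constant region of the beta chain, had a log2 fold change of −1.52 with a standard error of 0.67 and was the one gene of the list at an unadjusted edgeR p under 0.05. Trbc2, which shares most of its sequence with Trbc1 so that reads can be split between the pair, overlapped between the groups at 23.4, 31.1, 25.6 and 40.02 CPM. Cd4, the coreceptor of helper T cells, overlapped as well, at 1.17, 3.38, 2.86 and 2.62 CPM. Tcf7, a factor of naive and memory-like T cells, was the gene above both controls, at 9.98 and 10.3 CPM against 7.90 and 9.51 CPM. The list therefore did not move as a block: CD8 and receptor complex genes were lowest, and Cd4, Lef1, Skap1, Thy1 and Trbc2 were among the 6 genes whose groups overlapped. Thy1 is also a member of the fibroblast and pericyte list, and Trbc2 and Tcf7 stood above Trac and Cd3e in every library. How much of the RNA of these genes came from T cells was not tested.

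Regulatory T cell and checkpoint genes were lower with a similar median. Both APG-157 libraries lay below both controls in 11 of 15 genes and above in 0, against 13.2% and 7.82% of all genes. The median log2 fold change was −0.999. Foxp3, the transcription factor that defines regulatory T cells, was at 0.681, 0.658, 1.56 and 2.27 CPM, which are 38, 39, 87 and 117 counts. It was 2.86-fold lower (log2 fold change −1.52, standard error 0.52, unadjusted edgeR p under 0.05). Ctla4, the target of the anti-CTLA-4 antibody of the study, was at 0.394, 0.354, 1.29 and 1.03 CPM (log2 fold change −1.63, standard error 0.75, unadjusted edgeR p under 0.05). Pdcd1, which encodes PD-1, was at 0.95, 0.354, 3.72 and 4.26 CPM, 6.11-fold lower (log2 fold change −2.61, standard error 1.39). Tox and Tigit, genes of exhausted and regulatory T cells, had log2 fold changes of −2.36 and −1.61. Havcr2, which encodes the receptor TIM-3, was at 34.0, 30.2, 45.3 and 41.9 CPM (log2 fold change −0.44). Entpd1, which encodes the ectoenzyme CD39, overlapped between the groups at 96.9, 106, 112 and 93.9 CPM. The levels of Foxp3, Pdcd1 and Cd8a were all lower together, so these data do not separate regulatory from cytotoxic T cells.

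**Figure D2:**
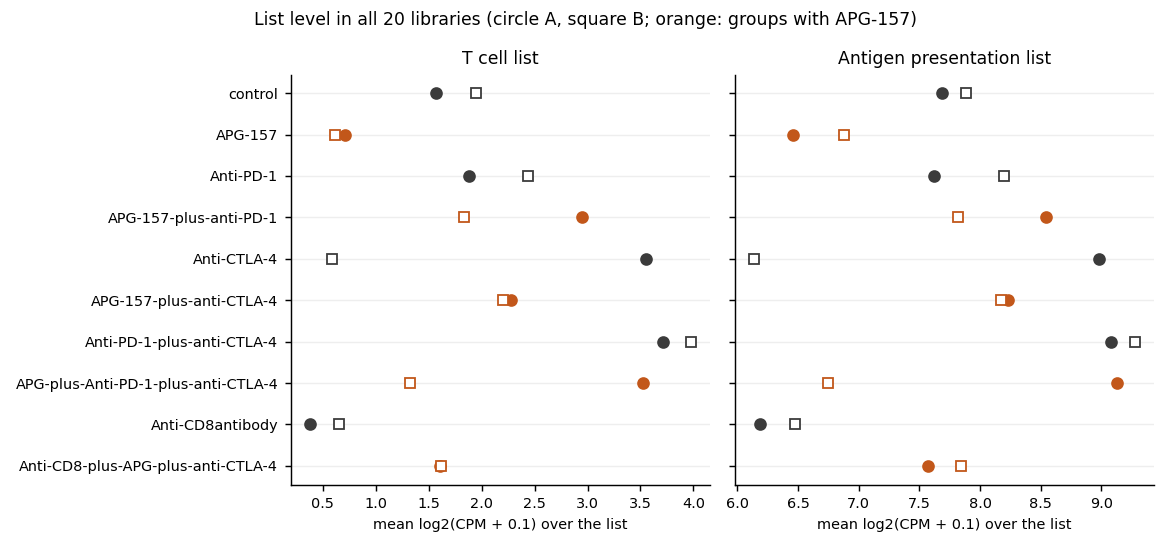
Mean log2(CPM + 0.1) of the T cell list (left) and of the antigen presentation list (right) in all 20 libraries, by group; circles are replicate A, squares replicate B, and orange marks groups with APG-157. The APG-157 libraries rank 3 and 5 from the lowest of 20 on the left and 3 and 6 on the right. Values as low occur in anti-CTLA-4 replicate B and in the anti-CD8 group, whose antibody was given to deplete CD8+ T cells.

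Set against all 20 libraries, the T cell list ranked 5 and 3 from the lowest in APG-157 A and B, and 7 and 12 in control. Antigen presentation ranked 3 and 6 in APG-157 and 9 and 12 in control. Low levels were not particular to APG-157. The anti-CD8 antibody, however, was given to deplete CD8+ T cells, and the T cell list holds Cd8a and Cd8b1. The paper describes that depletion as an experiment with a control group of its own, and which control was sequenced is not stated. Ciita, at 5.05 and 6.09 CPM here, was at 4.70 and 4.35 CPM in the anti-CD8 group, at 3.16 CPM in replicate B of anti-CTLA-4 and at 6.01 CPM in replicate B of APG-157 with both antibodies. Between replicates of the anti-CTLA-4 group it differed from 46.0 to 3.16 CPM, a wider gap than that between APG-157 and control.

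Genes induced by interferon gamma were lower in both APG-157 libraries, whereas genes of the type I interferon response were high in one and low in the other. In 16 of 28 interferon gamma response genes both APG-157 libraries lay below both controls and in 0 above. Over all genes these shares were 13.2% and 7.82%. The median log2 fold change of the list was −0.43, which was −0.70 without APG-157 A and −0.25 without APG-157 B. Iigp1, an immunity-related GTPase, was at 57.8, 27.2, 93.8 and 118 CPM (log2 fold change −1.32, standard error 1.02). Cxcl9, a chemokine that attracts T cells, was at 25.8, 29.3, 77.7 and 63.7 CPM. Ifng itself had 0.394, 0.101, 0.557 and 0.428 CPM, and Cxcl10, a chemokine that both interferon types induce, overlapped between the groups at 61.6, 18.2, 32.8 and 41.7 CPM. Among 23 type I interferon response genes the groups were separate in 1 gene, which was lower. The 2 APG-157 libraries lay on opposite sides of control: in 19 of 23 genes APG-157 A was above both controls, and in 19 of 23 APG-157 B was below both. The list mean was 5.48 and 4.28 in APG-157 and 4.72 and 4.72 in control. Ifit3, a viral RNA-sensing effector, was at 73.3, 17.3, 26.8 and 27.0 CPM, and Oas2, an enzyme of the RNase L pathway, at 20.6, 7.83, 8.98 and 7.45 CPM. The median log2 fold change of the list was 0.26 with all libraries and −0.42 without APG-157 A, so its sign was set by a single library.

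Cytotoxic effector genes split by gene and by library. The list mean was 1.95 and 0.92 in APG-157 and 1.08 and 1.85 in control. APG-157 A was above both controls in 7 of 16 genes, and APG-157 B was below both in 9 of 16. The median log2 fold change was −0.28 with all libraries, −0.58 without control A and 0.18 without control B. Gzma, granzyme A of killer lymphocytes, was at 8.67, 3.17, 1.29 and 2.49 CPM, 3.13-fold higher (log2 fold change 1.65, standard error 0.68, unadjusted edgeR p under 0.05). Gzmc, granzyme C, was at 49.2, 30.0, 2.58 and 14.4 CPM, a log2 fold change of 2.22 with a standard error of 1.07. Both APG-157 libraries were above both controls in these 2 genes and in no other of the 16, against 7.82% of all genes. Gzmb and Prf1, granzyme B and the pore-forming perforin, overlapped, at 15.4, 4.83, 3.07 and 5.02 CPM and at 15.9, 5.37, 2.78 and 6.24 CPM: APG-157 A was the highest library and APG-157 B lay within the controls. In 4 of 16 genes both APG-157 libraries were below both controls, against 13.2% of all genes. Ccl5, a T cell chemokine, was among those 4, at 14.3, 17.2, 20.6 and 28.4 CPM. Granzymes share sequence, so reads could be split between them. Natural killer cell genes had a median log2 fold change of 0.48, with 3 of 10 genes above both controls and 1 below. Ncr1, which encodes the activating receptor NKp46, was at 5.66, 2.83, 1.44 and 3.60 CPM and overlapped. Klra7, a receptor of the Ly49 family whose members resemble each other, was at 1.25, 0.608, 0.323 and 0.389 CPM (log2 fold change 1.38, standard error 0.64, unadjusted edgeR p under 0.05). Il2rb, a receptor chain for interleukins that T cells carry too, overlapped at 14.3, 7.87, 11.9 and 17.0 CPM. Without control A, the median of the natural killer list was −0.13.

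**Figure D3:**
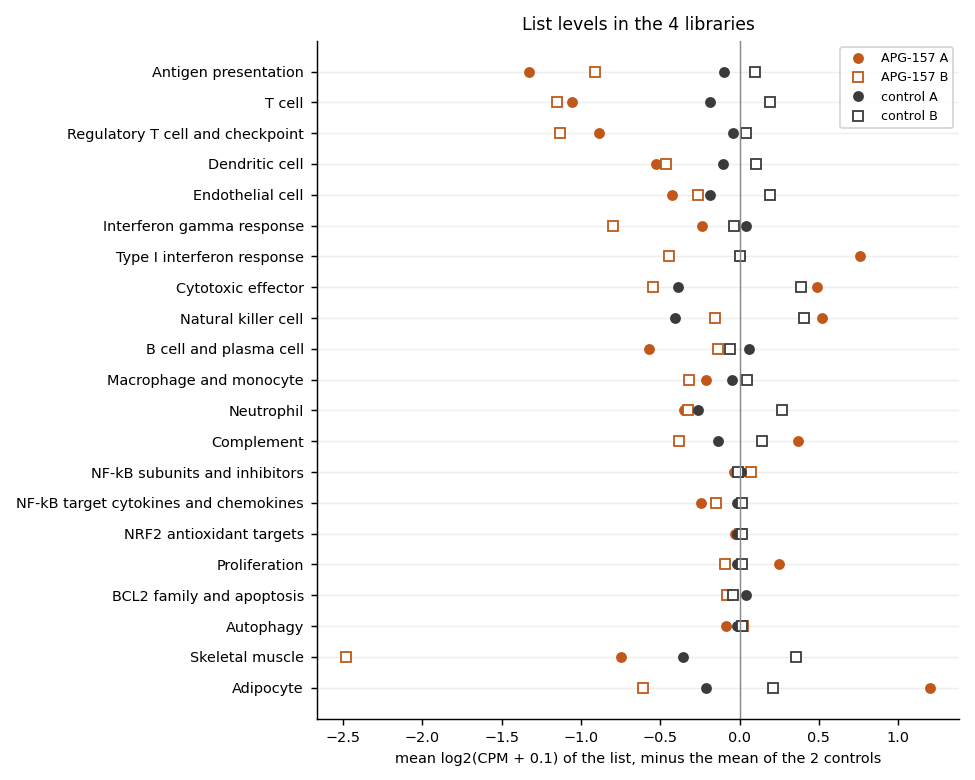
Mean log2(CPM + 0.1) of 21 gene lists in the 4 libraries, as the difference from the mean of the 2 controls (horizontal axis); circles are replicate A, squares replicate B, orange APG-157 and grey control. Both APG-157 points lie below both control points for, among others, antigen presentation, T cell, regulatory T cell, dendritic cell and interferon gamma lists. They lie on opposite sides of control for, among others, type I interferon, adipocyte, proliferation, complement and cytotoxic effector lists.

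Among the other leukocytes, dendritic cell genes had the lowest median. In 9 of 17 dendritic cell genes both APG-157 libraries lay below both controls and in 1 above, with a median log2 fold change of −0.55. Over all genes, the shares to set beside the counts here were 13.2% below and 7.82% above. Ccl17, a chemokine of mature dendritic cells, was at 0.125, 0.321, 0.844 and 0.622 CPM (log2 fold change −1.70, standard error 0.84), and Zbtb46, a factor of conventional dendritic cells, was higher, at 13.1, 16.8, 12.9 and 10.8 CPM. Fscn1, a cytoskeletal protein that tumor cells also express, overlapped at 251, 306, 251 and 299 CPM. Macrophage genes had a median log2 fold change of −0.15, with 7 of 26 genes below and 0 above both controls. Ctss, a protease that trims the class II invariant chain, was at 677, 857, 1109 and 1221 CPM (log2 fold change −0.60, standard error 0.48). Lyz2, the lysozyme of myeloid cells, overlapped at 2026, 3362, 2774 and 3450 CPM. Adgre1, which encodes the macrophage antigen F4/80, overlapped at 214, 188, 249 and 183 CPM, and Itgax, which encodes CD11c, was at 10.1, 6.29, 11.8 and 12.04 CPM. Ptprc had a log2 fold change of −0.04 with a standard error of 0.36. Among B cell and plasma cell genes, 2 of 20 lay above and 6 below both controls. Ighg1 and Ighg2b, immunoglobulin heavy chains, had 1, 1, 24 and 5 counts and 0, 1, 22 and 7 counts, and Ighm, the heavy chain of IgM, was at 54.9, 74.8, 91.4 and 101 CPM. Among 15 neutrophil genes, 2 lay above and 2 below both controls. S100a9, a calcium-binding protein of neutrophils, had 2, 10, 5 and 43 counts (unadjusted edgeR p under 0.05), with control B alone far above the rest. Mcpt8, a protease of basophils, had 8 and 5 counts in APG-157 and 0 in both controls, which makes it at least 4.03-fold higher against a floor of 3 counts over the control group (unadjusted edgeR p under 0.05).

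Cfp had the smallest unadjusted p of all genes. It encodes properdin, the positive regulator of the alternative complement pathway, made by myeloid cells and T cells, and was at 151, 127, 91.2 and 91.4 CPM. This is 1.52-fold higher (log2 fold change 0.60, standard error 0.12, edgeR adjusted p = 1), below the fold minimum. DESeq2 on 20 libraries gave it an adjusted p of 0.000542 with no fold minimum. Its control level was at the low end of the series: the controls ranked 3 and 4 from the lowest of 20, and the anti-CD8 libraries were at 95.5 and 90.2 CPM, while the 12 libraries with anti-PD-1 or anti-CTLA-4 and no anti-CD8 lay between 110 and 168 CPM. The APG-157 libraries ranked 17 and 10. Of 16 complement genes, 4 lay above and 5 below both controls, against 7.82% and 13.2% of all genes. C4b, a component of the classical pathway, was at 45.7, 40.3, 85.3 and 77.1 CPM. C3ar1, a receptor for the C3a fragment, and Clu, a complement inhibitor also called clusterin, had log2 fold changes of −0.07 and 0.15.

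Proteins that had been assayed in this model by blot, staining or flow cytometry were read out here as RNA, and 29 of 31 such genes passed the count filter. The genes of NF-κB subunits and inhibitors lay close to control. Rela, the p65 subunit, was at 60.9, 62.1, 60.7 and 63.8 CPM (log2 fold change −0.02, standard error 0.11), and Nfkbia, the inhibitor IκBα and an NF-κB target, at 106, 134, 91.9 and 144 CPM. Nfkb1 had a log2 fold change of 0.11 with a standard error of 0.18. Of 16 NF-κB subunits and inhibitors, 2 were above both controls and 0 below, near the background shares, and the median was 0.03. For 19 cytokines and chemokines that NF-κB drives, 1 lay above and 6 below, against 7.82% and 13.2% of all genes, with a median of −0.12. Il1b, an inflammatory cytokine, was at 0.824, 7.07, 6.43 and 3.87 CPM: APG-157 A was the lowest and APG-157 B the highest of the 20 libraries. Csf1, the growth factor of macrophages, was at 386, 358, 305 and 290 CPM, above both controls, with a log2 fold change of 0.33 and a standard error of 0.29. Csf2, the growth factor GM-CSF, was at 0.0896, 0, 0.198 and 0.194 CPM. Stat3 had a log2 fold change of −0.01 with a standard error of 0.19. Irf1, a transcription factor of the interferon response, was at 116, 116, 138 and 153 CPM. Cd274, which encodes PD-L1, was at 8.65, 5.86, 17.7 and 10.7 CPM (log2 fold change −0.97, standard error 0.98).

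Most genes of autophagy, proliferation, apoptosis and the NRF2 response overlapped between the groups. The counts below are read against 7.82% of all genes above and 13.2% below both controls. Cdh1, which encodes E-cadherin, was at 8.94, 3.70, 3.52 and 2.62 CPM, both APG-157 libraries above both controls (log2 fold change 1.04, standard error 1.10), and Snai1, the repressor of Cdh1, overlapped at 16.4, 22.2, 20.4 and 20.9 CPM. Among 26 genes of the BCL2 family and apoptosis, 3 lay above and 5 below both controls. Bmf, a BH3-only killer protein, was at 17.5, 29.7, 39.6 and 30.8 CPM (log2 fold change −0.58, standard error 0.26, unadjusted edgeR p under 0.05), and Mcl1, a survival protein, had a log2 fold change of −0.17. Becn1 and Atg7, which start and extend the autophagosome, had log2 fold changes of 0.00 and −0.08 with standard errors of 0.12 and 0.14, and 3 of 24 autophagy genes were separate between the groups. Of 30 proliferation genes, 1 lay above and 0 below, with a median of 0.08. The 2 APG-157 libraries lay on opposite sides of control for this list. APG-157 A was above both controls in 23 of 30 genes, and APG-157 B was below both in 15 of 30. The list mean was 7.02 and 6.68 in APG-157 and 6.76 and 6.79 in control. Mki67, the proliferation antigen Ki-67, was at 482, 413, 488 and 377 CPM, and Ccnd1, cyclin D1, at 946, 621, 698 and 680 CPM. For 23 targets of NRF2, 3 lay above and 2 below, with a median of 0.03. Fth1 and Ftl1, the ferritin chains, had log2 fold changes of −0.28 and −0.15.

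**Figure D4:**
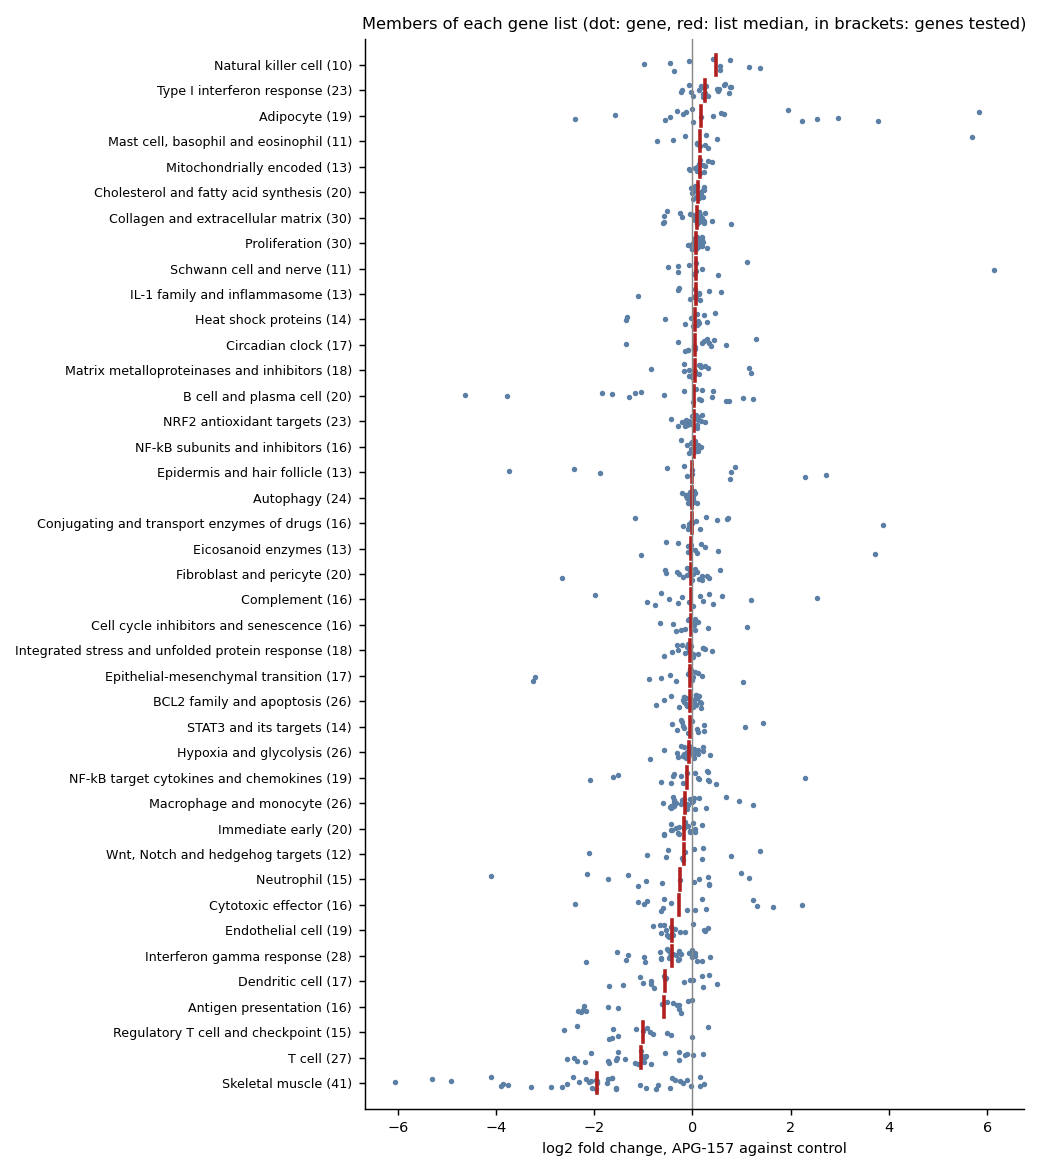
Log2 fold change of APG-157 against control (horizontal axis) for the tested members of each list with at least 10 genes tested (vertical axis, lists ordered by median); dots are genes and red bars list medians. Skeletal muscle, T cell, regulatory T cell and antigen presentation lists have the lowest medians, from −1.94 to −0.57, and most other medians lie near 0.

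Genes of skeletal muscle, vessels and fat differed between libraries too, and whether this RNA came from tissue around the tumor was not tested. Skeletal muscle genes had a median log2 fold change of −1.94, with 26 of 41 below both controls and 1 above, but the replicates lay far apart too: the list mean was 0.21 and −1.53 in APG-157 and 0.60 and 1.31 in control. Myog, a factor of muscle differentiation, had 3, 0, 39 and 52 counts, and Myh3, an embryonic myosin, was at 0.0896, 0.0338, 1.17 and 0.661 CPM. Eno3 and Fbxo32, muscle genes that other cells use as well, had log2 fold changes of −0.02 and 0.15. With the muscle list mean as a covariate, 152 genes had an unadjusted p under 0.05 in place of 149, and again 0 were called. Of 19 endothelial cell genes, 8 lay below both controls and 1 above, with a median of −0.42. Over all genes, 13.2% lay below and 7.82% above. Pecam1, an adhesion molecule of vessels, was at 38.1, 43.5, 51.5 and 67.8 CPM and Cdh5, vascular cadherin, at 45.0, 60.8, 67.3 and 79.7 CPM. A fat cell gene was high in APG-157 A alone: Plin4, a lipid droplet protein, had 131, 2, 1 and 1 counts. The part of muscle and fat RNA in the results for T cell and class II genes was not tested beyond the muscle covariate. Under it, the log2 fold changes of Ciita, Cd8a and Foxp3 were −1.99, −2.30 and −1.43.

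By the smallest p among genes with a mean of at least 1 CPM and separate groups, 12 genes on each side were taken. The 12 higher genes were Cfp, Prss35, Mefv, Espnl, Fpr1, Pde4a, Rapgef3, Gzma, Ripk3, Cpne8, Dhx34 and Nr1d2. Mefv, which encodes the inflammasome protein pyrin, was at 6.70, 7.46, 3.16 and 3.62 CPM (log2 fold change 1.06, standard error 0.36). Fpr1, the formyl peptide receptor of neutrophils and monocytes, was at 1.93, 5.79, 1.33 and 1.48 CPM. Ripk3, the kinase of necroptosis, was at 37.6, 35.9, 25.6 and 30.3 CPM (log2 fold change 0.39, standard error 0.16). Pde4a and Rapgef3, a phosphodiesterase that degrades cyclic AMP and an exchange factor that cyclic AMP activates, had log2 fold changes of 0.37 and 0.59. Nr1d2, the clock repressor REV-ERBβ, had a log2 fold change of 0.33. The 12 lower genes were Fam217b, Foxp3, Egr1, Dach1, Cdh13, Icosl, Mest, Prnd, Nhs, Pcdh12, Ptger2 and Naif1. Egr1, an immediate early transcription factor, was at 82.5, 98.4, 104 and 166 CPM (log2 fold change −0.58, standard error 0.20). Icosl, the ligand of the T cell costimulator ICOS, was at 8.80, 12.1, 18.5 and 14.2 CPM, and Icos itself was at 0.573, 0.591, 1.78 and 1.61 CPM. Ptger2, a receptor for prostaglandin E2, was at 1.27, 0.928, 2.48 and 2.45 CPM. Cdh13 and Pcdh12, cadherins of vessels, had log2 fold changes of −0.68 and −0.75, and Prnd, the prion-like protein doppel, −0.96. Since these genes were picked by their p, their values describe the choice and none passed after adjustment.

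The number of genes that DESeq2 called depended on which libraries it was given. On 20 libraries, the 5 lower calls were Nfe2l3, Smtnl1, Tceal7, Sln and 1700028P14Rik, each with 0 counts in both APG-157 libraries and a total of 1 to 9 counts in control. Smtnl1 and Sln are muscle genes, and their folds were at least 3.22 against a floor of 3 counts over the APG-157 group; the other 3 had no more than 3 counts in control, and no fold is given. On the 4 libraries alone, DESeq2 called 24 genes (0.141%) with no fold minimum, all lower, 13 of them beyond the fold minimum. Those 13 were Ciita, Gbp8, H2-Ea-ps, H2-Ab1, Trac, H2-Eb1, Cd3e, Cd8a, Des, Pdcd1, Gm43951, Mylpf and Cd8b1. This list, named after its values were seen, holds class II genes, T cell receptor complex and CD8 genes, and the muscle genes Des and Mylpf. Ciita had a DESeq2 adjusted p of 5.19e-14 in that fit. With edgeR on the same 4 libraries 0 genes were called and the smallest adjusted p of any gene was 0.337, so the calls depended on the tool as well as on the libraries. H2-Ea-ps, listed as a pseudogene in the reference strain but an expressed class II alpha chain in C3H mice, was at 32.3, 72.7, 235 and 295 CPM.

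Libraries of mice that received APG-157 together with antibodies gave a second measure that shares no library with the first. APG-157 with anti-PD-1, with anti-CTLA-4 and with both was compared with the same antibodies alone, and the 3 differences were averaged, 6 libraries against 6. Again edgeR called 0 genes (0%), with a smallest adjusted p of 0.14, 559 genes (2.86%) higher and 970 (4.96%) lower at an unadjusted p under 0.05. The 2 libraries of APG-157 with anti-CTLA-4 lay far closer to each other than those of any other group, at a biological coefficient of variation of 4.26% against 20.8% to 67.2%. For its flow cytometry, staining and blots, the paper describes only a single small tumor of this group at a time. Whether these 2 libraries came from different tumors is not stated, so 6 against 6 libraries may overstate the number of tumors. Without that arm, 569 genes had an unadjusted p under 0.05 in place of 1529, and 0 were called by edgeR.

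When APG-157 was added to antibodies, class II genes had no common direction over the 3 arms. Ciita had a log2 fold change of −2.18 alone and 0.16 added, a difference of −2.34 with a standard error of 1.28 (edgeR adjusted p = 1). Cd74 had −2.28 alone and −0.40 added, a difference of −1.87 with a standard error of 1.44 (edgeR adjusted p = 1). For antigen presentation genes the medians were 0.30 with anti-PD-1, −0.03 with anti-CTLA-4 and −0.68 with both antibodies, and −0.18 on average without the anti-CTLA-4 arm. T cell genes had medians of 0.44, −0.86 and −1.03, an average of −0.47 over 3 arms and −0.29 without the anti-CTLA-4 arm. Regulatory T cell genes had an average of −0.46, and Foxp3 had −0.62 (standard error 0.30) against −1.52 alone, a difference of −0.90 with a standard error of 0.59 (edgeR adjusted p = 1). With anti-PD-1, 9.08% of all genes lay above and 13.2% below in both libraries. With anti-CTLA-4, where the libraries with APG-157 lay closest together and may not be separate tumors, these shares were 28.6% and 32.9%. With both antibodies they were 13.8% and 14.6%. Against them, 1, 2 and 13 of 27 T cell genes and 0, 0 and 6 of 16 antigen presentation genes lay below. In the arm with both antibodies the low level rested on replicate B of the group with APG-157. The mean log2(CPM + 0.1) of the antigen presentation list was 9.13 in its replicate A and 6.74 in its replicate B, against 9.08 and 9.28 with both antibodies alone. For the T cell list it was 3.52 and 1.32, against 3.71 and 3.98. In the anti-CTLA-4 arm the T cell list mean was 2.28 and 2.20 with APG-157. That lay between the 3.55 of replicate A and the 0.59 of replicate B with anti-CTLA-4 alone. The lower T cell median of that arm thus rested on replicate A of the antibody alone.

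Cfp and granzyme genes had unlike values in both settings. For the difference between APG-157 alone and added, edgeR called 0 genes (0%), with 108 genes (0.552%) higher and 74 (0.378%) lower at an unadjusted p under 0.05. Cfp had a log2 fold change of 0.60 alone and −0.18 added (difference 0.78, standard error 0.13, edgeR adjusted p = 1). Gzma had 1.65 and −0.06 (difference 1.71, standard error 0.78, edgeR adjusted p = 1) and Gzmc 2.22 and −0.43. Mefv had 1.06 and −0.26, and Egr1 −0.58 and 0.14. Nr1d2 was higher in both, at 0.33 and 0.25 (standard error of the latter 0.09, edgeR adjusted p = 0.619), and Prnd was lower in both, at −0.96 and −0.72 (standard error of the latter 0.23, edgeR adjusted p = 0.619). Of the 24 genes picked above, 11 had the same sign in both measures.

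**Figure D5:**
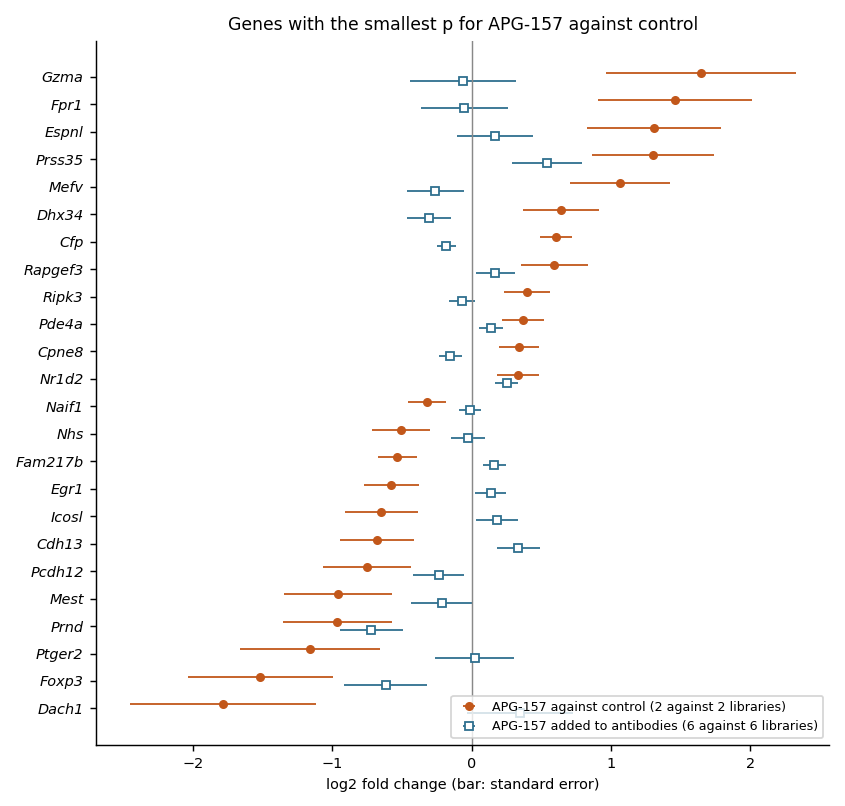
Log2 fold change with its standard error (horizontal axis) for the 24 genes with the smallest p, in APG-157 against control (orange circles, 2 against 2 libraries) and in APG-157 added to antibodies (blue squares, 6 against 6 other libraries). Nr1d2, Prss35, Prnd and Foxp3 lie on the same side of 0 in both, and Cfp, Mefv, Dach1 and Egr1 on opposite sides.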

How the data were processed

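RNA of SCCVII tumors from 10 groups of mice, 2 libraries each, was sequenced after a poly(A) mRNA preparation. The authors trimmed the reads with Trimmomatic 0.39, quantified transcripts with Salmon (1.5.0 in the submitters' processing notes, which name GRCm39) and summarised them to genes, and deposited expected counts, not normalized, for 54309 genes. A deposited table of log2 fold changes holds the authors' comparisons and was not used.

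Expected counts were rounded and tested with edgeR 4.0.16 (R 4.3.3; TMM, robust quasi-likelihood, 10 residual degrees of freedom). Genes with too few counts were removed (filterByExpr, minimum count 10, total 15), which left 19567. Genes were called where the log2 fold change passed 2 in either direction and the p, adjusted by Benjamini-Hochberg, was under 0.05. DESeq2 1.42.0 was an alternative. Library totals ranged from 43.9 to 72.1 (in units of 1e6). Counts at 0 were given a floor of 3 counts over the group. The test was checked on simulated data.

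The comparison, the 44 gene lists (818 symbols, 769 tested) and the genes named were chosen with earlier results of these data known. Named by rule were the study's protein targets, the 12 higher and 12 lower genes of smallest p with separate groups and a mean of at least 1 CPM, the DESeq2 calls on 20 libraries, and in each list the 2 most abundant genes and the 2 of smallest p. Other genes named, among them further class II genes, granzymes, Ptprc and Ighg2b, were chosen after their values were seen. The pairing of replicate letters was checked by the correlation of deviations from group means, 0.34 between APG-157 and control, over 0.1 in 13 of 45 pairs of groups. Results for some genes are not reported here.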

Additional observations from a re-analysis of the deposited data

How the results depend on the processing

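No edgeR setting on all libraries called a gene for APG-157 against control: RLE factors, no low-count filter, a mean of at least 1 CPM, a skeletal muscle covariate and the replicate block each gave 0. Genes lower numbered 5 by DESeq2 on 20 libraries and 13 by DESeq2 on the 4 libraries, and the cause was not tested. Leaving out 1 library gave 0 to 1 genes higher (1 without control A, Pde2a) and 0 to 1 lower (1 without APG-157 A, Gm12751). For APG-157 added to antibodies, the muscle covariate gave 1 higher gene (Gm43802), and DESeq2 gave 3 higher and 7 lower. For the difference between alone and added, DESeq2 gave 2 higher and 2 lower, and leaving out 1 library gave 0 to 1 higher and 0 to 1 lower. Chosen after seeing the data were the fit without the anti-CTLA-4 arm, the fit without replicate B of anti-CD8 with APG-157 and anti-CTLA-4 (228 genes at an unadjusted edgeR p under 0.05 for APG-157 against control, in place of 149) and the 4-library fit with the block; each called 0 genes.

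With the replicate block, 190 genes had an unadjusted edgeR p under 0.05 on 20 libraries and 526 on the 4 libraries, against 149 and 285 without it. On the 4 libraries, genes lower at that threshold numbered 426 with the block and 243 without. The letters were taken to pair the libraries only if the labels said so or every pair of groups correlated above 0.1, which 13 of 45 did. Between APG-157 and control the correlation was 0.34, a hint of shared letters from the data and not from the design.

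Leaving out 1 library at a time moved these list medians (log2 fold change, lowest and highest): T cell from −1.37 to −1.06, regulatory T cell and checkpoint from −1.24 to −0.86, Type I interferon response from −0.42 to 0.70, natural killer cell from −0.13 to 0.93, dendritic cell from −0.52 to −0.38, macrophage and monocyte from −0.24 to −0.068, skeletal muscle from −5.13 to −1.05, NF-kB subunits and inhibitors from −0.010 to 0.099, NF-kB target cytokines and chemokines from −0.24 to 0.079, NRF2 antioxidant targets from −0.050 to 0.038 and autophagy from −0.050 to 0.050. Other medians moved within 1 SD of the replicates' list levels: interferon gamma response from −0.70 (without APG-157 A) to −0.25 (without APG-157 B), endothelial cell from −0.57 (without control A) to −0.24 (without APG-157 A), proliferation from −0.026 (without APG-157 A) to 0.20 (without APG-157 B), cytotoxic effector from −0.58 (without control A) to 0.18 (without control B), complement from −0.22 to 0.077, BCL2 family and apoptosis from −0.064 to −0.011 and antigen presentation from −0.69 to −0.42. The sign was opposite in 23 of 115 named genes without APG-157 A and in 8 without APG-157 B. It was opposite in 9 without control A and in 14 without control B. Values of 5 of the genes that turned without APG-157 A ranged as follows: Ifit3 from −0.60 to 1.46, Map1lc3b from −0.25 to 0.031, Oas2 from −0.028 to 1.34, Pdpn from −0.13 to 0.56 and Spp1 from −0.039 to 1.20. Over 115 named genes and 1583 gene and setting pairs, 74 had the opposite sign, and the largest log2 fold change of a gene that changed sign was 0.79 in size. With 2 libraries a group, differences the size of the standard errors given are not resolved.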

Other observations

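Among lists not described above, red blood cell and cholesterol and fatty acid synthesis genes differed between single libraries more than between treatments. For the other lists here, only counts of separate genes are given. Red blood cell genes had a list mean log2(CPM + 0.1) of 1.24 and 3.67 in APG-157 A and B and 2.01 and 3.50 in control A and B. In the cholesterol and fatty acid synthesis list the means were 6.74 and 5.94 in APG-157 and 6.54 and 5.99 in control, both A libraries above both B libraries, and 0 of 20 genes were separate between the treatments. Circadian clock genes had 3 of 17 members above both controls and 0 below, and immediate early genes, which respond to stimulation and handling, had 0 of 20 above and 5 below. Collagen and extracellular matrix genes had 1 of 30 above and 3 below. Mitochondrially encoded genes had 2 of 13 above and 0 below. These are read against 7.82% of all genes above and 13.2% below.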
